A study of Mus musculus with 31 samples.

Results

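The genes described here are 10 subunits and inhibitors of NF-kB (Nfkb1, Nfkb2, Rela, Relb, Rel, Nfkbia, Nfkbie, Nfkbiz, Bcl3 and Tnfaip3), taken by gene symbol from the 55401 genes quantified in RNA-seq of sorted mouse astrocytes. The 12 libraries came from C57Bl/6 female mice labelled as 10 weeks old and fall into 4 groups of 3. In the 2X cytokine group the lateral ventricles were injected with TNF-α (50 ng/mL) together with IL-1β (100 ng/mL), and the injection was repeated on day 7. The 2X PBS group received PBS, the vehicle, on both occasions. The 1X cytokine group received both cytokines on day 7 only, and the 1X PBS group received PBS on day 7 only. Astrocytes were sorted 18 to 24 hours after the day 7 injection. A short description label names TNF-α alone as the stimulus. The labels give neither the sort markers nor the number of animals behind a library, and p-values here reflect only how far libraries of a label spread, which could be technical spread. The 19 other samples of the series, from chromatin accessibility assays, were not analysed here.

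NF-kB is a family of transcription factors built as pairs of Rel-domain subunits that bind kB motifs in DNA. In resting cells IkB proteins hold the pairs in the cytoplasm. Signals from TNF and IL-1 receptors lead a kinase complex to mark IkB for destruction, and the freed pairs enter the nucleus and switch on inflammatory genes, among them the genes of their own inhibitors. A slower branch of the pathway processes the Nfkb2 precursor and works mainly through its pairing with RelB. In astrocytes NF-kB is known as a driver of the reactive state with chemokine and complement expression.

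Library totals ran from 1878418 to 5521679 estimated counts. 1 library in each 1X group stood apart from the others of its label. On the first principal component, which held 46.0% of the variance, 1X cytokine replicate 1 scored 39.8 while the other 1X cytokine libraries scored -29.3 and -38.8. On the same component 1X PBS replicate 1 scored -41.2 while the other 1X PBS libraries scored 67.5 and 67.0. Both replicate 1 libraries thus lay on the side of the other 1X group. The same held for Gfap, the intermediate filament gene of astrocytes that is known to rise in reactive ones, at 725, 233 and 153 CPM (counts relative to the TMM-scaled library size) in 1X cytokine, against 189, 701 and 585 CPM in 1X PBS. Whether the labels of these libraries were exchanged was not tested. They are used as labelled, so every result of a 1X group rests on that. In the 2X groups Gfap had 149.9, 119 and 113 CPM in 2X cytokine, against 1141, 1043 and 1095 CPM in 2X PBS. On the first component 2X cytokine lay on the side of 1X PBS replicate 1 and 1X cytokine replicates 2 and 3. The 2X PBS libraries lay on the opposite side. The 2X labels were not tested either, and every 2X direction below rests on them. The labelled cell type was checked on 11 astrocyte markers, which summed to 6709 CPM or more in every library. That sum alone does not measure purity. The 11 mural cell and fibroblast markers summed to 8475, 4956 and 3215 CPM in 1X cytokine and to 3856, 6325 and 7782 CPM in 1X PBS. In 1X PBS replicate 3 they exceeded the astrocyte sum, and in each other library they lay below it. The 10 oligodendrocyte lineage markers summed to 6428, 6356 and 5286 CPM in 1X PBS. The summed CPM of 10 monocyte and macrophage markers was 10.8 to 73.2 in 2X cytokine, 409 to 412 in 2X PBS. In 1X cytokine it was 378, 33.4 and 34.1 CPM, against 33.1, 1539.6 and 1431 CPM in 1X PBS. Results that use the 1X groups are given below with and without both replicate 1 libraries of those groups. These 2 libraries were picked because in these same data they lay with the other 1X group. Leaving them out by itself favours a gap between the 1X groups, and 2 libraries remain in each. The p-values of such fits are therefore descriptive and give no separate support.

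On GRCm38 (GENCODE M21) the subunit genes lie at chr3:135584655-135691547 (Nfkb1, minus strand), chr19:46304320-46312385 (Nfkb2, plus), chr19:5637483-5648130 (Rela, plus), chr7:19606217-19629438 (Relb, minus) and chr11:23736847-23770970 (Rel, minus). The IkB genes lie at chr12:55489410-55492647 (Nfkbia, minus), chr17:45555703-45563169 (Nfkbie, plus), chr16:55811375-55838899 (Nfkbiz, minus) and chr7:19808462-19822770 (Bcl3, minus), and Tnfaip3 at chr10:19000910-19015657 (minus). Relb and Bcl3 thus lie close together on the same strand of chromosome 7.

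Promoters are shown because several genes of the pathway are known targets of NF-kB itself. The RefSeq promoter table used here, on the GRCm38.p6 build, holds windows for 7 of the 10 members, each running from 250 bases before an annotated start to 50 after it. The kB motif, of 10 bases, was searched on both strands, and matches that overlap on opposite strands were counted separately. 8 of the 10 windows of the members held a match, and so did 6 of the 7 members with a window, all but Rela. Among all 32851 RefSeq windows of this length, 8.46% held a match. A match is a description of the letters, not evidence that a factor binds there. The windows below are those of an effector subunit gene and 3 inhibitor genes, written along the strand of the gene, with the matches in capitals. They lie at chr19:46304487-46304786 on the plus strand (Nfkb2), chr12:55492598-55492897 on the minus strand (Nfkbia), chr7:19822706-19823005 on the minus strand (Bcl3) and chr10:19015361-19015660 on the minus strand (Tnfaip3).
Nfkb2: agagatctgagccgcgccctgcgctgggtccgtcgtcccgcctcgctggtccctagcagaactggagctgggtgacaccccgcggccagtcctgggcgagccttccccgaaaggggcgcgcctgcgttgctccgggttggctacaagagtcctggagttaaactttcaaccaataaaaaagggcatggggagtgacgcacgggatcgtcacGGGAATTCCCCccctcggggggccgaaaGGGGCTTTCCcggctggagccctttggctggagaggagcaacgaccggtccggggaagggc
Nfkbia: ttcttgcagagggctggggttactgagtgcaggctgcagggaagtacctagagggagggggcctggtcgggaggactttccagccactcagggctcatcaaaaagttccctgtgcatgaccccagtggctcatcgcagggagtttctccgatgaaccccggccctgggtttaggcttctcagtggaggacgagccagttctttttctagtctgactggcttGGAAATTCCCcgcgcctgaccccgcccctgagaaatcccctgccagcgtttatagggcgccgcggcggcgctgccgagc
Bcl3: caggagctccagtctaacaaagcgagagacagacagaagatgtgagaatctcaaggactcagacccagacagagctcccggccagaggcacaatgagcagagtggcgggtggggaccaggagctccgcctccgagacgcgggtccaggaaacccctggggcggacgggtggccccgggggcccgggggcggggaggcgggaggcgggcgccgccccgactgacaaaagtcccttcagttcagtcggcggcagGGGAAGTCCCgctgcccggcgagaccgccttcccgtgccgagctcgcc
Tnfaip3: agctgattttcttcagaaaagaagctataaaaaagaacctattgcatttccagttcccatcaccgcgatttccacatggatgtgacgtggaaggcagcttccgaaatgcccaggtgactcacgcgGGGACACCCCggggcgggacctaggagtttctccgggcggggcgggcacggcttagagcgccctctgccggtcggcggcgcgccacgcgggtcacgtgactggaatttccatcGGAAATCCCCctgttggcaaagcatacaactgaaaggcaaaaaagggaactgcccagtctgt

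In the Nfkb2 window 3 matches lay within 39 bases before the start, 2 of them overlapping on opposite strands. The Nfkb2 gene has 2 further annotated starts, and their windows shared 1 match. The Nfkbia match began 29 bases before its start, and the Bcl3 match lay just after its start. The Tnfaip3 matches began at -125 and -12 from the start, and those of Rel and Nfkbie shown next began at -92 and -106. They are printed here for comparison with the 4 windows above, with every base of the match in capitals, and the other Rel match overlaps this one on the opposite strand.
Rel: GGGAAATCCC
Nfkbie: GGGGGATTCC

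**Figure D1:**
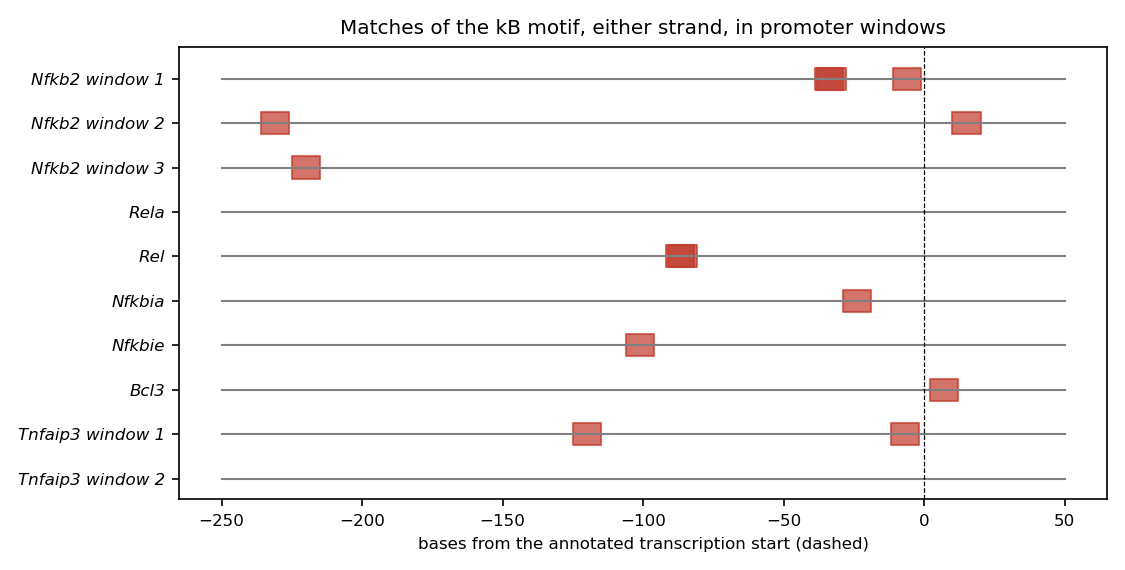
Positions of kB motif matches on either strand (red boxes) in the 10 RefSeq promoter windows of the members, in bases from the annotated start (dashed line), 1 row per window. 8 windows hold at least 1 match, and the windows of Rela and the second start of Tnfaip3 hold none.

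Compared per length, Nfkbia was by far the most abundant member and Rel the least. Nfkbia encodes IkB-alpha, the inhibitor that is destroyed and remade in each round of signalling, and averaged 582 ± 287 TPM (transcript abundance per length on a common sum, SD over 12 libraries). Nfkbiz, which encodes the nuclear IkB-zeta that acts as a co-factor at a subset of target genes, averaged 107 ± 39.2 TPM. Rela, the main transactivating subunit, averaged 39.0 ± 4.60 TPM. These 3 genes kept their order throughout, since Nfkbia exceeded Nfkbiz and Nfkbiz exceeded Rela in 12 of 12 libraries.

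Below them the order was looser. Tnfaip3 (26.4 ± 23.1 TPM), which encodes a ubiquitin-editing enzyme that shuts off signalling to the kinase complex, lay under Rela in 10 of 12 libraries and above Nfkb1 in only 5. Nfkb1 (19.96 ± 4.46 TPM), Relb (18.1 ± 9.34 TPM) and Nfkb2 (17.1 ± 8.49 TPM) changed places between libraries. In 2X cytokine Nfkb1, at 15.7, 24.1 and 18.2 TPM, exceeded Nfkb2, at 10.5, 11.2 and 10.7 TPM, in 3 of 3 libraries. In 1X PBS replicates 2 and 3 the order turned, with Nfkb1 at 23.0 and 21.5 TPM and Nfkb2 at 34.4 and 27.4 TPM. Nfkb2 exceeded Nfkbie, the IkB-epsilon gene, in 12 of 12 libraries. Nfkbie (7.42 ± 4.65 TPM) in turn exceeded Rel (3.63 ± 2.61 TPM) in 12 of 12 libraries. Bcl3 (6.04 ± 4.21 TPM) lay under Nfkbie in 8 of 12 and above Rel in 9 of 12. The ranks were the same when CPM per kilobase replaced TPM.

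**Figure D2:**
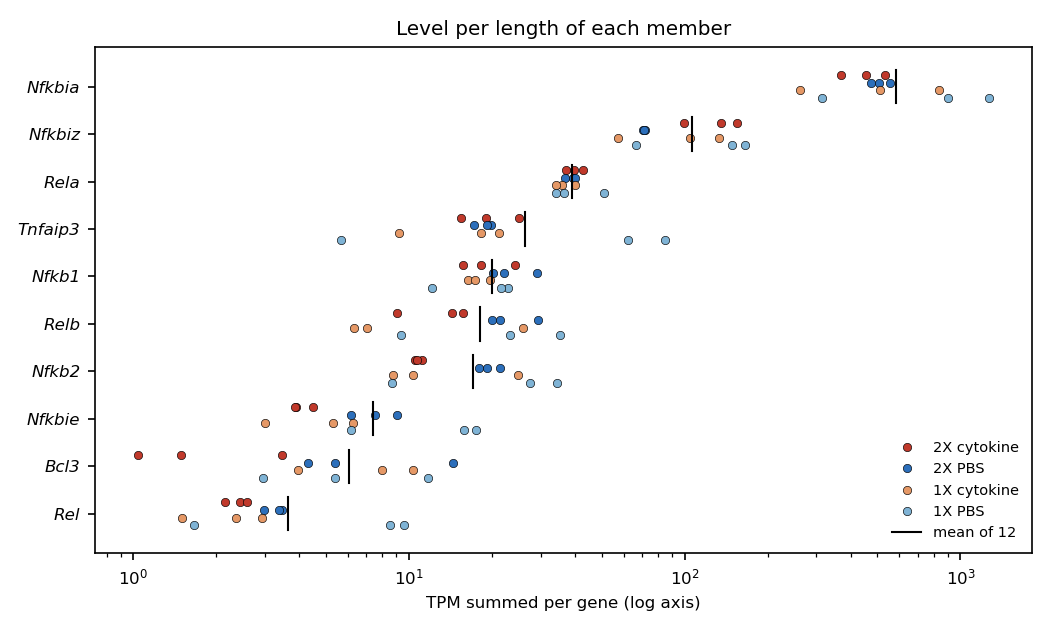
TPM summed per gene in each of the 12 libraries (points, log axis), coloured by group, with the mean of 12 as a vertical bar. Nfkbia lies highest at a mean of 582 TPM and Rel lowest at 3.63 TPM, and Tnfaip3 in the 1X PBS libraries spans 5.68 to 85.0 TPM.

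2X cytokine was compared with 2X PBS, both used as labelled, to ask what follows repeated cytokine injection. Nfkb2, Relb, Nfkbie and Bcl3 were lower in 2X cytokine and Nfkbiz was higher when the 6 libraries of these groups were fitted alone, while Rela, Nfkbia and Tnfaip3 overlapped between the groups and were not called. Genes were tested with the quasi-likelihood F test of edgeR, p-values were adjusted over all genes, and a gene was called at an adjusted p under 0.05. In the fit of all 12 libraries, which share 1 estimate of the spread, 0 of the 10 members were called, beside 0.0345% of the 14490 genes tested. There 2 members, Nfkbiz and Bcl3, had an unadjusted p under 0.05, beside 1402 of the 14490 genes. By DESeq2 0 members were called, beside 114 of 14490 genes. By limma-trend 0 were called, beside 6 of 18801 genes on log2(TPM + 1) and 7 on log2(TPM + 0.1). In the 6 libraries alone 5 of the 10 were called, 4 lower and 1 higher, beside 7.74% of 13765 genes (5.31% lower and 2.43% higher). With replicate 1 of both 1X groups left out of the larger fit, 5 members (Nfkb2, Relb, Nfkbie, Nfkbiz and Bcl3) were called, beside 7.02% of genes. Of the 5 called in the 6 libraries, Nfkb2, Relb and Nfkbiz were called whichever of the 6 libraries was left out. Bcl3 was not called without 2X cytokine replicate 1 or 3 or 2X PBS replicate 1 (adjusted p = 0.0759, 0.0653 and 0.0804, in that order) and did not pass the filter without 2X PBS replicate 3. Nfkbie was called only with 2X PBS replicate 1 left out or with all 6 libraries, and had an adjusted p of 0.0809 to 0.209 without each other one. The biological coefficient of variation was 0.237 in the first fit and 0.114 in the second. The groups did not overlap for 7 members, 6 lower and 1 higher, beside 25.3% of genes (14.1% lower and 11.2% higher).

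Among the subunits, the gene pair of the slower branch was lower in 2X cytokine. Nfkb2 had 23.6, 24.9 and 22.8 CPM in 2X cytokine, against 48.2, 42.4 and 44.1 CPM in 2X PBS. Every 2X cytokine library lay below every 2X PBS library, and the log2 fold change was -0.90 ± 0.13 (SE, edgeR adjusted p = 0.00086 in the 6 libraries; adjusted p = 0.596 in all 12). Relb, the partner of the processed Nfkb2 product, had 11.4, 17.7 and 17.4 CPM in 2X cytokine, against 29.6, 27.8 and 38.8 CPM in 2X PBS. It too showed no overlap, at a log2 fold change of -1.02 ± 0.20 (edgeR adjusted p = 0.00736 in the 6 libraries and 0.623 in all 12).

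The subunits of the faster branch were not called. Rela overlapped between the groups, at 70.3, 73.8 and 63.9 CPM in 2X cytokine and 69.4, 63.4 and 71.9 CPM in 2X PBS. Its log2 difference of 0.04 ± 0.11 was smaller than its error. Nfkb1, whose product forms the classical pair with RelA, had 21.8, 30.1 and 28.5 CPM in 2X cytokine and 33.4, 37.3 and 33.8 CPM in 2X PBS. Rel, the c-Rel subunit best known from lymphocytes, had 12.9, 10.9 and 13.2 CPM in 2X cytokine and 15.7, 18.0 and 18.1 CPM in 2X PBS. The groups did not overlap for these 2 genes, but neither passed the test in the 6 libraries (log2 fold change -0.38 ± 0.15, edgeR adjusted p = 0.171 for Nfkb1, and -0.48 ± 0.19, adjusted p = 0.159 for Rel).

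Rela made up 51.3%, 45.2% and 44.0% of the summed subunit TPM in 2X cytokine, against 34.5%, 36.7% and 35.8% in 2X PBS. The shares were thus higher in every 2X cytokine library. Rela itself hardly differed, so this follows from the lower values of the other subunits and is no further result. In 1X cytokine the shares were 33.9%, 50.5% and 50.2%, and in 1X PBS 51.8%, 33.6% and 30.9%. The shares were not tested and describe transcripts, not protein.

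Among the inhibitors the nuclear IkB genes moved in opposite directions. Nfkbiz had 381, 325 and 236 CPM in 2X cytokine, against 175, 171 and 178 CPM in 2X PBS. It was the 1 member that was higher without overlap, at a log2 fold change of 0.85 ± 0.14 (edgeR adjusted p = 0.00294 in the 6 libraries and 0.496 in all 12). Bcl3, which encodes a nuclear IkB that binds homodimers of the Nfkb1 and Nfkb2 products, had 0.714, 1.13 and 0.900 CPM in 2X cytokine, against 7.62, 3.34 and 4.15 CPM in 2X PBS. These rest on few reads: 2, 3 and 3 estimated counts in 2X cytokine against 18, 19 and 14 in 2X PBS. The ratio of the summed counts per summed TMM-scaled library size was 0.204 (exact 95% interval 0.0835 to 0.433, counting error only). The fitted log2 fold change was -2.33 ± 0.53 (edgeR adjusted p = 0.0179 in the 6 libraries and 0.415 in all 12).

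The cytoplasmic inhibitors differed among themselves. Nfkbie had 7.14, 6.40 and 6.60 CPM in 2X cytokine, against 10.2, 14.96 and 12.1 CPM in 2X PBS. Its log2 fold change of -0.91 ± 0.25 lay just past the threshold in the 6 libraries (edgeR adjusted p = 0.0465) and not in all 12 (adjusted p = 0.537). Nfkbia had 321, 349.6 and 245 CPM in 2X cytokine and 343, 340.3 and 382 CPM in 2X PBS, which overlap. Its log2 difference was -0.21 ± 0.12 (edgeR adjusted p = 0.380 in the 6 libraries). Tnfaip3 had 59.3, 75.0 and 39.3 CPM in 2X cytokine and 52.9, 57.0 and 61.6 CPM in 2X PBS. The 2X cytokine libraries lay on both sides of the 2X PBS ones, at a log2 difference of 0.01 ± 0.18. The ratio of Nfkbia to Nfkbiz TPM was 2.93, 3.93 and 3.73 in 2X cytokine, against 7.09, 6.71 and 7.78 in 2X PBS.

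**Figure D3:**
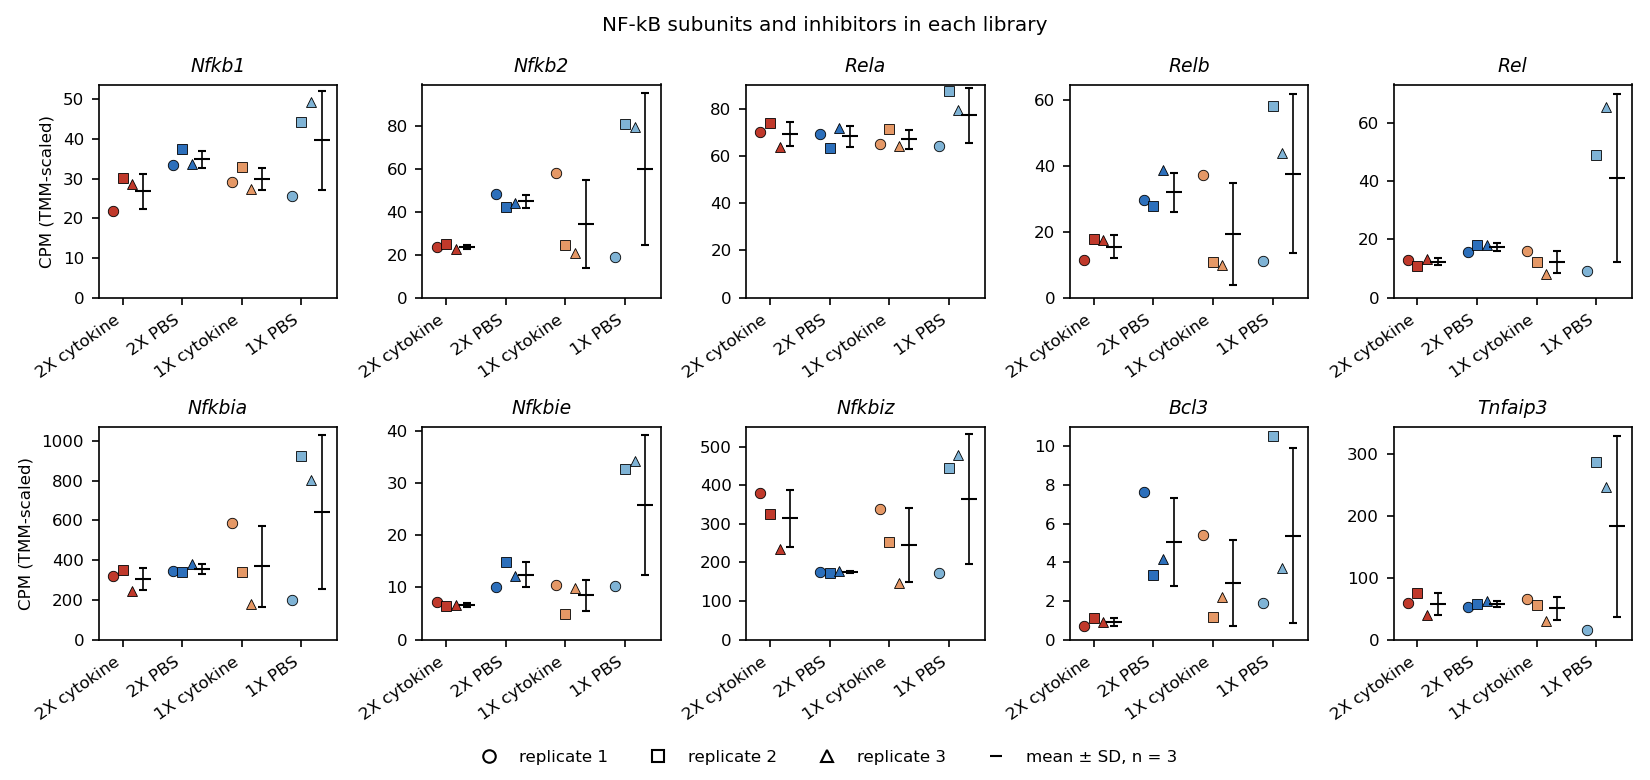
CPM of each member in each library (points, shape by replicate number) with the mean ± SD of 3 libraries beside them, all axes from 0. Nfkb1, Nfkb2, Relb, Rel, Nfkbie and Bcl3 lie lower and Nfkbiz higher in 2X cytokine than in 2X PBS without overlap, beside 25.3% of all genes. In 1X PBS, replicate 1 lies below replicates 2 and 3 for all 10 members.

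Other genes of the pathway gave these values in the 6 libraries. Of 21 upstream receptors, adaptors and kinases 4 were called, all lower in 2X cytokine, beside 5.31% of all genes called lower. The median log2 fold change of the 21 was -0.12, beside 0.01 over all genes. Tnfrsf1b, the second TNF receptor, had 3.57, 4.52 and 4.50 CPM in 2X cytokine against 26.2, 28.7 and 25.5 CPM in 2X PBS (log2 fold change -2.66 ± 0.21, edgeR adjusted p = 8.3e-06). Tnfrsf1a, the first TNF receptor, had 73.2, 71.2 and 57.3 CPM in 2X cytokine against 176, 138 and 148 CPM in 2X PBS (log2 fold change -1.18 ± 0.12, edgeR adjusted p = 9.05e-05). Ikbkb, a catalytic subunit of the IkB kinase, was not called, at a log2 fold change of 0.09 ± 0.10. Of 13 other IkB proteins and brakes on the pathway 1 was called, Nfkbid, a further nuclear IkB, which was lower at -1.26 ± 0.26 (edgeR adjusted p = 0.0115). That share is near the 7.74% of all genes called in this fit.

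Of 20 NF-kB target genes 19 were tested in the 6 libraries and 15 were called, beside 7.74% of all genes. In 2X cytokine 14 of them were lower and 1 was higher, beside 5.31% and 2.43% of all genes, and the median log2 fold change of the 19 was -1.78, beside 0.01 over all genes. The chemokine gene Ccl2 had 4.28, 3.77 and 3.30 CPM in 2X cytokine against 37.7, 28.9 and 30.2 CPM in 2X PBS. Traf1, an adaptor of TNF receptors, was the higher one, at 0.71 ± 0.14 (edgeR adjusted p = 0.00763). The targets summed to 751 to 845 CPM in 2X cytokine and to 1841 to 2348 CPM in 2X PBS. The 3 pathway lists were chosen with earlier results of these data known, so their shares of calls are descriptive. In all 12 libraries 0 genes of these 3 lists were called, beside 0.0345% of the 14490 genes tested.

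Markers of some other cell types also differed between the 2X groups, and those of others did not. In 2X cytokine the summed monocyte and macrophage markers were lower, as given above. In the 6 libraries 8 of 8 tested markers were below 0 and 6 were called, all lower, beside 5.31% of 13765 genes called lower. The 10 neutrophil markers summed to 13.8 to 169.6 CPM in 2X cytokine and to 265 to 351 CPM in 2X PBS. Of 7 tested, 2 were above 0 and 5 below, and 4 were called, all lower. The 12 microglia markers summed to 404 to 806 CPM in 2X cytokine and to 720.4 to 1039.5 CPM in 2X PBS, which overlap. Oligodendrocyte lineage markers ran the other way, summing to 5628 to 6756 CPM in 2X cytokine and to 3036 to 4350 CPM in 2X PBS. Of these, 5 of 10 were called, all higher, beside 2.43% of all genes called higher. Of 11 mural cell and fibroblast markers 4 were called, all lower, beside 5.31% of all genes. Their sums overlapped at 3658 to 5609 CPM in 2X cytokine and 4701 to 5609 CPM in 2X PBS. Of the 11 astrocyte markers 2 were called higher and 1 lower, beside 2.43% and 5.31% of all genes. The lower one was Gfap, with 149.9, 119 and 113 CPM in 2X cytokine against 1141, 1043 and 1095 CPM in 2X PBS (log2 fold change -3.09 ± 0.12, edgeR adjusted p = 2.77e-08 in the 6 libraries and 0.105 in all 12). Immediate-early genes, which cell dissociation also induces, summed to 7826 to 9399 CPM in 2X cytokine and to 7409.5 to 7929 CPM in 2X PBS, which overlap. The 12 endothelial markers overlapped too, at 151 to 240 CPM in 2X cytokine and 173 to 208 CPM in 2X PBS. Of them 6 were above 0 and 6 below, and 1 was called, lower, beside 5.31% of all genes. Of 5 neuron markers tested 0 were called, beside 7.74% of all genes. Of the markers of other cell types listed, Slc17a7, a marker of excitatory neurons, was at 0 in all 12 libraries, and none of the blood cell lists was. Their part in the result was not tested. In such bulk samples fewer cells of a type and less RNA per cell cannot be told apart.

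1X cytokine was compared with 1X PBS to ask what follows 1 cytokine injection. With all libraries all 10 members had a log2 fold change below 0, with a median of -0.80 beside -0.01 over all genes, but the libraries of each label spread widely and 0 members were called, beside 0% of the 14490 genes. At an unadjusted p under 0.05 Rel, Nfkbie and Tnfaip3 were lower, beside 783 of the 14490 genes in either direction. No member was free of overlap between the groups, beside 6.18% of genes. DESeq2 and limma-trend called 0 members, beside 2 of 14490 genes by DESeq2 and 5 or 6 of 18801 by limma-trend. Without 1X PBS replicate 1 alone, 5 members were called, beside 7.55% of genes. Without both replicate 1 libraries 9 members were called, all lower in 1X cytokine, beside 23.5% of 14848 genes, 11.5% lower. That fit holds 2 libraries in each 1X group, kept after seeing these data, so its calls and adjusted p-values only describe those libraries.

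Tnfaip3 had 65.4, 55.7 and 30.2 CPM in 1X cytokine, against 16.0, 286 and 246 CPM in 1X PBS. Its 1X PBS replicate 1 was the lowest of the 12 libraries and the other 1X PBS libraries were the highest, while in 1X cytokine replicate 3 lay below replicates 1 and 2. The log2 fold change was -1.84 ± 0.69 with all libraries (edgeR adjusted p = 0.866) and -2.57 ± 0.26 without both replicate 1 libraries (adjusted p = 8.94e-06). Nfkbia had 588, 339 and 181 CPM in 1X cytokine, against 199, 924 and 803 CPM in 1X PBS. Its log2 fold change was -0.80 ± 0.49 with all libraries (edgeR adjusted p = 0.866) and -1.70 ± 0.23 without both (adjusted p = 0.000102).

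Among the subunits, Nfkb2 and Relb had replicate 1 apart from the others in both 1X groups. For Nfkb1, Rela and Rel replicate 1 lay below the others in 1X PBS, with no such gap in 1X cytokine. Nfkb2 had 58.3, 24.6 and 20.9 CPM in 1X cytokine, against 19.0, 81.2 and 79.8 CPM in 1X PBS. Without both replicate 1 libraries its log2 fold change was -1.79 ± 0.14 (edgeR adjusted p = 1.16e-06), and with them -0.77 ± 0.46 (adjusted p = 0.866). Relb had 37.4, 10.8 and 9.89 CPM in 1X cytokine, against 11.03, 58.2 and 44.1 CPM in 1X PBS, and a log2 fold change of -2.27 ± 0.27 without both and -0.91 ± 0.55 with them. Rel had 16.0, 12.3 and 8.24 CPM in 1X cytokine, against 9.13, 49.0 and 65.4 CPM in 1X PBS. For Rel the 1X PBS replicates 2 and 3 were above every other library of the series, and its log2 fold change was -2.42 ± 0.23 without both and -1.73 ± 0.51 with them. Nfkb1 had 29.2, 33.0 and 27.5 CPM in 1X cytokine and 25.5, 44.3 and 49.2 CPM in 1X PBS, and its log2 fold change without both was smaller, at -0.59 ± 0.18 (edgeR adjusted p = 0.0255). Rela had 65.1, 71.4 and 64.3 CPM in 1X cytokine and 64.3, 87.5 and 79.6 CPM in 1X PBS, and was not called without both (log2 difference -0.27 ± 0.13, edgeR adjusted p = 0.150).

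Of the remaining inhibitors, Nfkbie had 10.6, 4.99 and 9.89 CPM in 1X cytokine, against 10.3, 32.7 and 34.3 CPM in 1X PBS. Its log2 fold change was -2.21 ± 0.28 without both replicate 1 libraries and -1.61 ± 0.41 with them. Nfkbiz had 338, 253 and 146 CPM in 1X cytokine and 172, 444 and 478 CPM in 1X PBS, with -1.18 ± 0.23 without both and -0.57 ± 0.36 with them. Bcl3 had 5.41, 1.15 and 2.20 CPM in 1X cytokine and 1.90, 10.5 and 3.71 CPM in 1X PBS. It lay near the threshold without both (edgeR adjusted p = 0.0461), on 3 and 4 estimated counts in 1X cytokine against 38 and 16.2 in 1X PBS. The 1X libraries also differed in other markers: neutrophil markers summed to 511, 21.9 and 27.5 CPM in 1X cytokine and to 32.0, 1073 and 1298 CPM in 1X PBS, while astrocyte markers summed to 10016, 19053 and 21513 CPM in 1X cytokine and to 25763, 7164 and 6709 CPM in 1X PBS. Their part in the result was not tested.

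**Figure D4:**
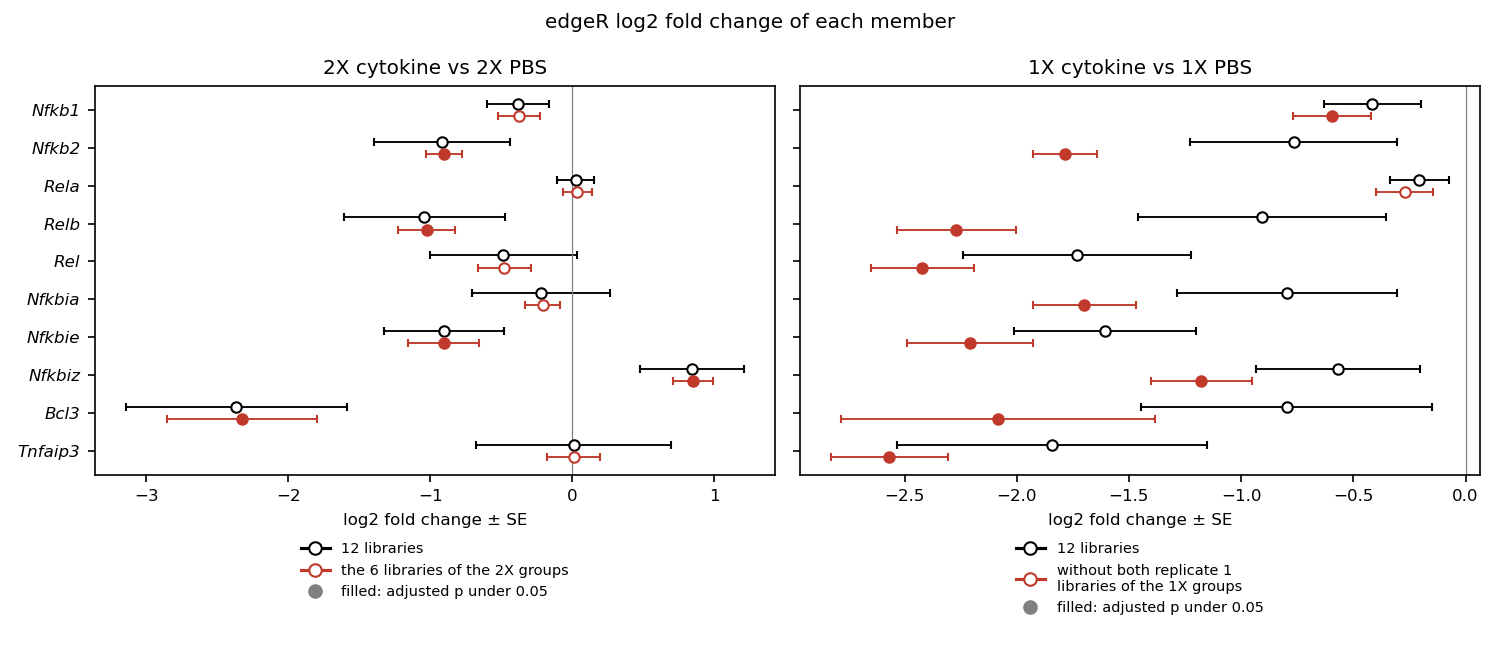
Log2 fold change ± SE of each member by edgeR, for 2X cytokine over 2X PBS (left) and 1X cytokine over 1X PBS (right), in the fit of 12 libraries (black) and in a fit with fewer libraries (red), filled where the adjusted p is under 0.05. The 2X values hardly move between fits while their errors shrink, and the 1X values move away from 0 without both replicate 1 libraries, as for Nfkb2 at -1.79 without both and -0.77 with them.

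Repeated and single injection were compared within each agent. Between 2X cytokine and 1X cytokine 0 members were called with all libraries, beside 0.0276% of genes, and 0 without both replicate 1 libraries, beside 0.0202%. With all libraries 0 members had an unadjusted p under 0.05, beside 1015 of 14490 genes. Bcl3 was the 1 member without overlap, lower in 2X cytokine, beside 12.5% of genes (6.76% lower). Nfkb2, Relb, Rel and Nfkbia lay below 0 with all libraries and above 0 without both, as with Relb at -0.39 ± 0.58 and 0.60 ± 0.29. Without both, the log2 fold changes ran from -0.78 ± 0.86 for Bcl3 to 0.65 ± 0.21 for Nfkbiz.

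Between 2X PBS and 1X PBS all 10 members were below 0 and 0 were called with all libraries, beside 0% of genes. At an unadjusted p under 0.05 Rel, Nfkbie, Nfkbiz and Tnfaip3 were lower in 2X PBS, beside 914 of 14490 genes in either direction. Without 1X PBS replicate 1 alone 5 members were called, beside 7.39% of genes, and without both replicate 1 libraries 7 were, all lower in 2X PBS, beside 18.6% of genes, 8.47% lower. Tnfaip3 was lower by the most, at -2.19 ± 0.21 without both (edgeR adjusted p = 1.26e-05), and Rel followed at -1.70 ± 0.17 (adjusted p = 1.76e-05). Nfkb1, Rela and Bcl3 were not called. This comparison shares its 2X PBS libraries with the first one and its 1X PBS libraries with the second.

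The difference between the responses, 2X cytokine over 2X PBS minus 1X cytokine over 1X PBS, asks whether repetition alters the response itself. With all libraries 0 members were called, beside 0% of genes. In that fit 1 member, Nfkbiz, had an unadjusted p under 0.05, beside 754 of 14490 genes. Without both replicate 1 libraries 6 members were called, all with a response less negative or more positive at 2X, beside 9.33% of genes, 3.21% in that direction. They were Nfkb2, Relb, Rel, Nfkbia, Nfkbiz and Tnfaip3. The difference was 2.58 ± 0.34 on the log2 scale for Tnfaip3 (edgeR adjusted p = 0.00034) and 2.03 ± 0.29 for Nfkbiz (adjusted p = 0.000674). In that fit Nfkbiz stood at 0.85 at 2X and -1.18 at 1X, and Tnfaip3 at 0.0126 and -2.57. These values depend on which libraries are kept: without 1X PBS replicate 1 alone, 1 member, Tnfaip3, was called, beside 0.113% of genes. For Nfkb2 and Relb the sign turned as well, from the fit of all libraries (-0.15 and -0.14) to the fit without both (0.89 and 1.25).

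The transcripts behind each gene were uneven. Nfkbiz was nearly all Nfkbiz-204, at 96.8% of the TPM of the gene, and Rela nearly all Rela-201, at 93.6%. Nfkbia divided between the coding Nfkbia-201, at 53.2% of TPM and 76.7% of counts, and the short Nfkbia-202 of 701 bases, annotated as a retained intron, at 46.8% of TPM and 23.3% of counts. The high level of Nfkbia per length therefore includes the short transcript. In Nfkb1 the transcripts assigned the most TPM were not coding. Nfkb1-202, a retained intron, held 28.2%, and Nfkb1-207, annotated for nonsense-mediated decay, held 27.6%. Over the libraries these shares ran from 11.2% to 53.8% and from 5.02% to 59.1%. All shares of this paragraph rest on how the model divides reads among overlapping transcripts, with no error given. For Bcl3, Bcl3-206, a retained intron of 502 bases, held 3.47 TPM in 2X cytokine replicate 1, where the coding transcripts were listed at 0.

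For Relb the model that assigns reads divided the TPM differently between its main transcripts in 2X cytokine and 2X PBS. The division also changed within each 1X label. Whether the RNA itself differed was not tested. Relb-203 had 1.19, 2.02 and 1.86 TPM in 2X cytokine, against 18.9, 16.3 and 24.2 TPM in 2X PBS. Relb-201 had 5.36, 9.94 and 8.72 TPM in 2X cytokine and was listed at 0 in all 3 libraries of 2X PBS. In 1X cytokine Relb-203 had 23.3, 1.07 and 1.06 TPM and in 1X PBS 4.49, 30.4 and 3.65 TPM. Relb-201 was listed at 0 in 1X cytokine replicate 1 and had 4.81 and 4.54 TPM in the others, and in 1X PBS it was listed at 0 in replicates 1 and 2 and had 16.7 TPM in replicate 3.

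The transcripts, of 2203 bases (Relb-203) and 2200 bases (Relb-201), are nearly identical, so few reads tell them apart. Relb-203 holds an exon of 11 bases, exon 3, at chr7:19622926-19622936 on the minus strand of GRCm38, which Relb-201 lacks. Relb-201 has 2 bases more at the end of the exon before it, and the last exons end 6 bases apart. The stretch across this junction is shown because it carries the difference, with 15 shared bases on each side and, in capitals, the 11 bases of exon 3 in Relb-203 and the 2 added bases in Relb-201. The first letters of these inserts coincide.
Relb-203: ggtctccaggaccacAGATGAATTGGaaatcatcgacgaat
Relb-201: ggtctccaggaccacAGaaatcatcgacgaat

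The division between them was made by the model that assigns reads and its error is not given in the files, so no test was made on it.

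**Figure D5:**
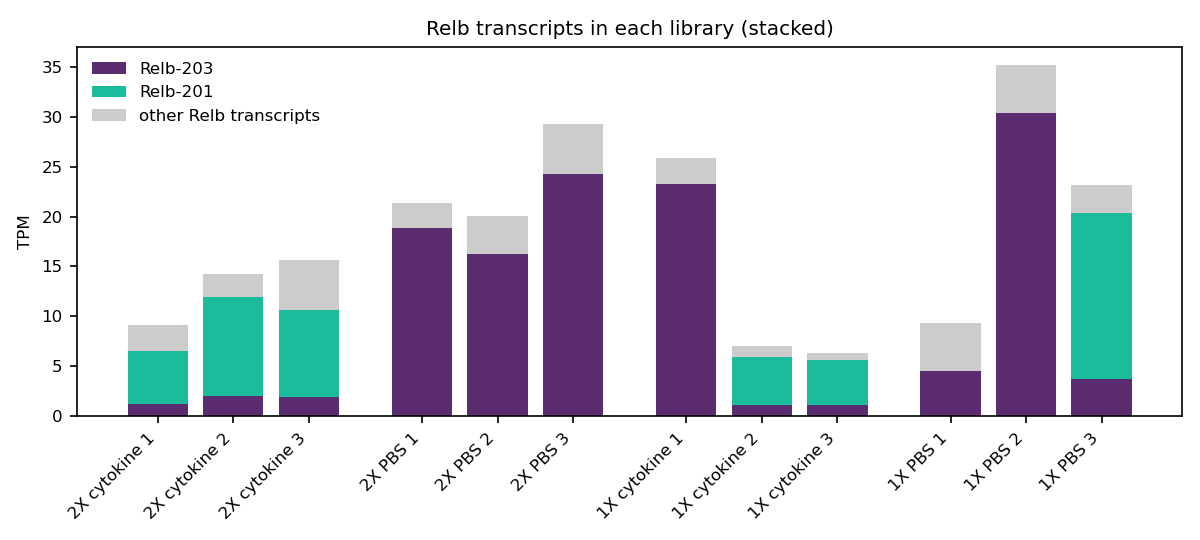
TPM of Relb-203 (purple), Relb-201 (green) and the other Relb transcripts (grey), stacked, in each library from 0. Relb-201 is listed at 0 in the 3 libraries of 2X PBS and lies between 5.36 and 9.94 TPM in those of 2X cytokine.

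The genes most like each member over the 12 libraries were found among 11775 protein-coding genes by the mean absolute difference of centred log2(CPM + 0.5) profiles. These are descriptions, and the points share libraries and depth. For Nfkbia they were Runx1 at 0.13, Fosl2 at 0.14 and Tgm2 at 0.16. For Nfkbiz they were Fosb at 0.17, Nr4a1 at 0.19 and Npnt at 0.20, the first and second of them immediate-early genes. For Nfkb2 they were H2-D1 at 0.14, Samhd1 at 0.15 and Ctsh at 0.15. Relb had Acsl5 and C1s1 at 0.21 and Ifitm2 at 0.23, with Nfkb2 next, also at 0.23. The nearest to Rel was Cmtm7 at 0.23, to Nfkbie Bcl2l11 at 0.22, to Tnfaip3 Nfil3 at 0.32 and to Bcl3 Osgin1 at 0.29. Rela and Nfkb1, which varied least, were nearest to Hsdl1 at 0.06 and Dmxl2 at 0.10. Rel and Nfkbia stood at ranks 4 and 5 in likeness to Tnfaip3, both at 0.35.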

How the data were processed

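The data are 12 RNA-seq libraries, 3 in each of 4 groups taken from the sample titles. Per the labels' protocols, libraries followed the SMART-Seq2 method and the authors quantified reads on the mouse GRCm38 transcriptome with kallisto 0.46.1. Each deposited file lists 142604 transcripts with a length, an effective length, an estimated count that was not normalised between libraries, and a deposited TPM value scaled by the authors' software to a common sum. The deposited lengths, in bases, are other values and served only to describe transcripts. Whether strand was used when assigning reads is not stated, and reads of overlapping or antisense partners may be mixed. Genes with near-identical copies are uncertain.

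Estimated counts were summed per gene and rounded. Genes passing filterByExpr (14490) were scaled by TMM and tested in R 4.3.3 with the quasi-likelihood F test of edgeR 4.0.16, in 1 fit of 12 libraries with a coefficient for each group. P-values were adjusted over every tested gene by Benjamini-Hochberg and a gene was called under 0.05. The standard error of a log2 fold change was its size over the square root of F. All 10 members passed the filter. The 5 comparisons were both cytokine against PBS contrasts, both 2X against 1X contrasts and the difference of the cytokine responses.

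Alternatives were DESeq2 1.42.0, RLE scaling, no low count filter beyond 1 count, a mean CPM filter at 10, limma-trend of limma 3.58.1 for genes with a mean of 1 TPM or more, once on log2(TPM + 1) and once on log2(TPM + 0.1), a replicate block, fits restricted to the libraries being compared, each library left out, and both replicate 1 libraries of the 1X groups left out. Fits of the 6 libraries of the 2X groups with the block or with 1 library left out were added after seeing the data. The procedure was tested on simulated counts, changed in 2X cytokine only and with the same spread in every group. That simulation held no replicate 1 libraries set apart, so it does not cover the unequal spread of these groups.

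Library totals ran from 1878418 to 5521679 estimated counts, and 3 counts, the limit that a count of 0 allows, correspond to 0.543 to 1.60 CPM. Reads carry no molecular identifiers, so intervals and floors cover counting error only. The members, the gene lists and the tests were chosen with earlier results of these data known. Members are named whatever their values. Other listed genes may be named if among the 4 with the smallest p in 2X cytokine against 2X PBS or the 2 with the highest mean CPM of their list, and 3 genes of nearest profile (mean CPM of at least 5) per member.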

Additional observations from a re-analysis of the deposited data

How the results depend on the processing

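With all 12 libraries 0 members were called in each of the 5 comparisons. DESeq2, RLE scaling, limma-trend, the mean CPM filter (which removed Bcl3) and the replicate block also gave 0. Over all genes DESeq2 called 2 to 114 per comparison, RLE scaling 0 to 5 and limma-trend 0 to 9. The mean CPM filter called 0 to 6 genes and the replicate block 0 to 2. Without a low count filter 1 member was called in 2X cytokine against 2X PBS, 3 in 1X cytokine against 1X PBS and 3 in 2X PBS against 1X PBS. Of all 33574 genes tested there, 460, 251 and 97 were called, in the same order. The 6 libraries of the 2X groups alone gave 5, with the replicate block 4 (Nfkbie was lost), and with 1 library left out 3 to 4. Over all genes these fits called 1065 of 13765, with the block 794 of 13765, and with 1 library left out 670 to 931. Over all fits that leave out 1 library the counts ran from 0 to 4 for 2X cytokine against 2X PBS, from 0 to 5 for 1X cytokine against 1X PBS and for 2X PBS against 1X PBS, and from 0 to 1 for the difference of the responses, the 5 and the 1 without 1X PBS replicate 1. Leaving out replicate 1 of both 1X groups, the counts were 5, 9, 7 and 6 in the same order. The shares of all genes for these fits and for those without 1X PBS replicate 1 are given above. Same-numbered deviations from the group means correlated at -0.05, -0.07 and -0.01 in the 2X groups and at -0.62, -0.30 and -0.39 in the 1X groups. Between the cytokine groups they correlated at 0.0496, -0.0213 and 0.163, and between the PBS groups at -0.0868, -0.0328 and -0.0594. In the 1X groups replicate 1 lay on opposite sides, which by itself makes the values negative. Whether the replicate numbers pair libraries cannot be told from these values.

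Directions changed for members near 0 or in the 1X groups, and the cause was not tested. In 2X cytokine against 2X PBS, Tnfaip3 was at -0.00422 with the replicate block in 12 libraries and -0.00317 in 6. With a library left out of the 12 it ran from -0.20 to 0.24 and Rela from -0.0123 to 0.0908. In the 6 libraries Tnfaip3 was at -0.0212, -0.229, -0.0360 and -0.00409 without 2X cytokine replicates 1 and 2 and 2X PBS replicates 1 and 2, and Rela at -0.0201 and -0.0308 without replicate 2 of 2X cytokine and of 2X PBS. On log2(TPM + 1) and log2(TPM + 0.1), Bcl3 in 1X cytokine against 1X PBS was at 0.22 and 0.26, and with a library left out ran from -1.71 to 0.11. On the same scales 2X cytokine against 1X cytokine gave 0.10 and 0.10 for Nfkb1, 0.23 and 0.27 for Relb and 0.0771 and 0.12 for Rel, which was also at 0.0059 by DESeq2 and 0.0305 in the 6 libraries with the replicate block. Without both replicate 1 libraries that contrast was 0.0610 for Nfkb2, 0.60 for Relb, 0.25 for Rel and 0.23 for Nfkbia. With a library left out it ran from -0.82 to 0.0670 for Nfkb2, -0.68 to 0.60 for Relb, -0.20 to 0.25 for Rel, -0.60 to 0.24 for Nfkbia and -0.0649 to 0.42 for Tnfaip3. In 2X PBS against 1X PBS the TPM scales gave 0.35 and 0.37 for Nfkb1, 0.22 and 0.24 for Relb and 0.24 and 0.28 for Bcl3, where the median of all genes was 0.15 and 0.18, and with a library left out Relb ran from -0.65 to 0.18 and Bcl3 from -0.52 to 0.75. For the difference of the responses the TPM scales gave -0.26 and -0.27 for Nfkb1 and 0.0131 and 0.0298 for Relb, the replicate block -0.0163 for Nfkb1, and the fit without both replicate 1 libraries 0.89 for Nfkb2 and 1.25 for Relb. With a library left out these ran from -0.15 to 0.25, -0.41 to 0.48 and -0.55 to 0.83 for Nfkb1, Nfkb2 and Relb. Depth limits Bcl3 most, at 2 or 3 counts in each 2X cytokine library.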
